A study of Mus musculus with 16 samples.

Results

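Hearts lacking AKT2 in cardiomyocytes were set against hearts lacking AKT1 in cardiomyocytes, gene by gene. The 8 arrays that carry these titles, 4 AKT2 KO and 4 AKT1 KO, were taken from 16 arrays in all, and every gene past a detection filter was compared. AKT2 KO mice were homozygous for an Akt2 allele with loxP sites around exons 5 and 6, and AKT1 KO mice for an Akt1 allele with loxP sites around exons 6 and 7. AKT1+AKT2 DKO mice were homozygous for both alleles. Control mice had neither allele. All 16 mice were C57Bl/6 males that carried a heterozygous MerCreMer transgene, a Cre recombinase that hydroxytamoxifen activates. The αMHC promoter drives it, so recombination is aimed at cardiomyocytes, and the fibroblasts, vessels and blood cells of the same heart keep both genes. Mice aged 3 months, controls included, received 500 µg of hydroxytamoxifen a day in 5 injections, and RNA was taken from the heart apex 21 days after induction. The titles say "untreated" although the labels name this induction. The DKO and control arrays serve here to place the values of the single knockouts and to estimate the spread. They also count in the detection filter and in the choice of each gene's probe.

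AKT1 and AKT2 are closely related kinases that act below the insulin and growth factor receptors. They are recruited to the membrane by the lipid product of phosphoinositide 3-kinase, and their targets include the FoxO transcription factors, which leave the nucleus when phosphorylated. In mice, AKT1 is best known for growth of the body and of the heart, and AKT2 for the response of muscle, fat and liver to insulin. Because both kinases share most known substrates, a direct comparison asks which transcripts differ according to which isoform is targeted.

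A level below is the log2 intensity of a probe minus the 75th percentile of its array, so 0 marks a probe at that percentile. Levels of different probes are not compared with each other. Array by array, this percentile was 492.1 to 809.4 intensity units, and the share of probes well above background was 43% to 53.9%. The median SD of a gene was 0.114 in AKT2 KO, 0.162 in AKT1 KO, 0.248 in DKO and 0.090 in control hearts (n = 4 each). AKT1 KO replicate 1 lay farther from its group's mean than the other AKT1 KO arrays (SD of its deviation over genes 0.302, against 0.178 to 0.227), and DKO replicate 3 stood farthest from its group of all (0.523). The arrays lay on 2 slides with 2 arrays of each group on each. Each genotype occupied 1 column on both slides, so column and genotype cannot be told apart. With 4 arrays a group, precision is limited by their number, and p-values measure the spread between these samples.

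The targeted genes were read first. On the probe used for Akt2 (NM_001110208, chromosome 7), the AKT2 KO arrays gave 2.64, 2.43, 2.50 and 2.58, and the AKT1 KO arrays gave 4.51, 4.89, 4.84 and 4.87. All 4 AKT2 KO arrays lay well below all 4 AKT1 KO arrays, and the AKT1 KO level was near that of control hearts (4.91 ± 0.062, SD, n = 4). The log2 difference was -2.24 ± 0.09 (SE), a 4.73-fold lower level in AKT2 KO hearts (limma adjusted p = 1.38e-09). Both other Akt2 probes were lower as well, by log2 differences of -2.59 and -1.11, and the exact two-sided permutation p of each of the 3 probes was 0.0286, the smallest that 4 against 4 arrays can give. DKO hearts had 2.91 ± 0.10 on the probe used. Some Akt2 signal is left in AKT2 KO hearts, and cardiomyocytes that escaped recombination cannot be told apart here from other heart cells that keep the gene.

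Akt1 gave no such mark. On its brighter probe (NM_009652, chromosome 12) the AKT2 KO arrays read 5.30, 5.19, 5.14 and 5.05, and the AKT1 KO arrays 4.86, 5.43, 5.26 and 5.36. The groups overlap, and 3 of the 4 AKT1 KO arrays lie at or above the middle of the AKT2 KO arrays. The log2 difference of AKT2 KO minus AKT1 KO was -0.06 ± 0.10 (SE, limma adjusted p = 0.999, exact permutation p = 0.686). The second Akt1 probe differed by -0.29 (probe-level limma adjusted p = 0.705, exact permutation p = 0.0571), with the higher values again in AKT1 KO hearts. Where these probes lie relative to the deleted exons was not tested, so they do not check the label of the AKT1 KO group.

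**Figure D1:**
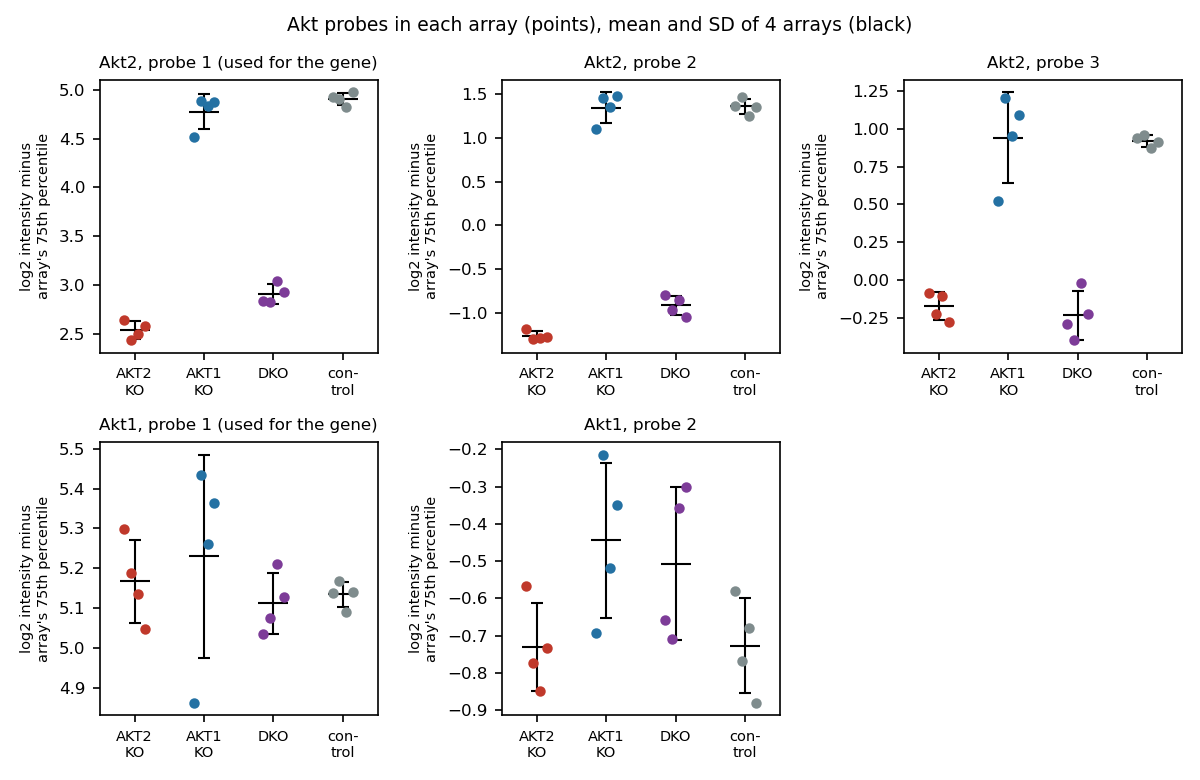
Levels (log2 intensity minus the array's 75th percentile) of the 3 Akt2 probes and 2 Akt1 probes in each of the 16 arrays, with mean and SD of 4 arrays in black. On the 3 Akt2 probes all AKT2 KO arrays lie below all AKT1 KO arrays, while on the 2 Akt1 probes these groups overlap. Each panel has its own vertical range.

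Of 13725 genes tested, 123 differed between AKT2 KO and AKT1 KO hearts (0.896%, limma, Benjamini-Hochberg adjusted p below 0.05 over all genes). Of these, 57 were higher (0.415%) and 66 lower (0.481%) in AKT2 KO hearts. In 122 of the 123 the 4 AKT2 KO arrays all lay on 1 side of the 4 AKT1 KO arrays, as they did in 6.81% of all genes tested. The difference was at least 2-fold for 29 higher and 29 lower genes. The fit uses the spread of all 16 arrays, and leaving out DKO replicate 3 gave 328 calls, with the 123 among them. Each single knockout was also fitted against control: 18 genes were called in AKT2 KO (0.131%), 10 higher (0.0729%) and 8 lower (0.0583%), and 109 in AKT1 KO hearts (0.794%), 57 higher (0.415%) and 52 lower (0.379%). These 2 comparisons share the control arrays.

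**Figure D2:**
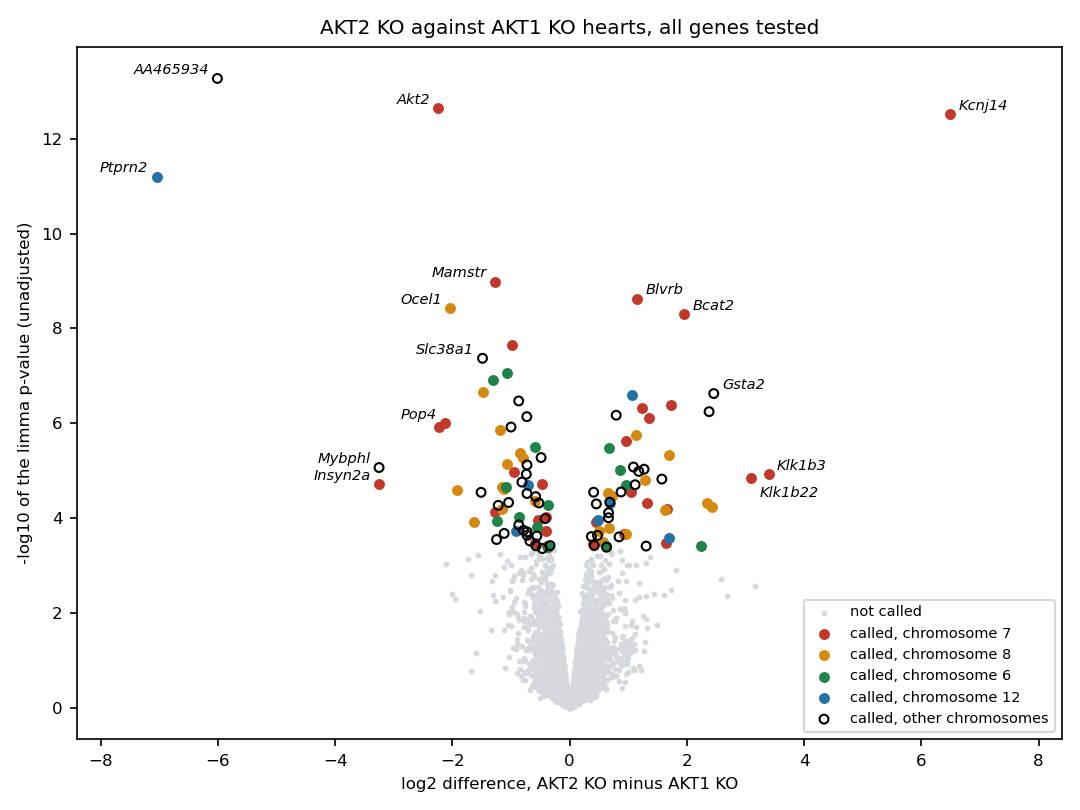
Log2 difference of AKT2 KO minus AKT1 KO (horizontal) against -log10 of the unadjusted limma p-value (vertical) for the 13725 genes tested. Filled colours mark called genes on chromosomes 7, 8, 6 and 12 and open circles those on other chromosomes. Kcnj14 lies farthest to the right (6.49) and Ptprn2 farthest to the left (-7.05).

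Genes of chromosome 7 within 20 Mb of Akt2 form the first group. Of those named here, Blvrb lies 0.16 Mb from Akt2, Pop4 10.7 Mb and the others 16.5 to 18.6 Mb. Kcnj14, which encodes an inward rectifier potassium channel, had levels of 3.48, 3.55, 3.63 and 3.67 in AKT2 KO hearts, against -3.45, -2.85, -2.50 and -2.85 in AKT1 KO hearts. The groups lie far apart, and control hearts (-1.32 ± 0.12) and DKO hearts (1.71 ± 0.69, SD, n = 4 each) lie between them. The difference was 6.49 ± 0.26 log2 units (SE), or 90.0-fold (limma adjusted p = 1.38e-09), and the second Kcnj14 probe was also higher in AKT2 KO hearts, with 0 of the 4 AKT1 KO arrays well above background on it. Bcat2, the mitochondrial aminotransferase of leucine, isoleucine and valine, read 4.68, 4.70, 4.67 and 4.57 in AKT2 KO and 2.30, 2.72, 2.87 and 2.90 in AKT1 KO hearts. AKT1 KO arrays were at the control level here (2.78 ± 0.11, SD, n = 4), and AKT2 KO arrays 3.89-fold above AKT1 KO (limma adjusted p = 8.72e-06). The second Bcat2 probe gave a difference of 1.63.

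Klk1b3 and Klk1b22 encode tissue kallikreins, serine proteases of a family of very similar neighbouring genes, so that signal shared between copies is uncertain. Klk1b3 read -2.63, -1.30, -2.53 and -1.38 in AKT2 KO and -4.45, -5.40, -6.23 and -5.33 in AKT1 KO hearts. The AKT2 KO values fall into a lower and a higher pair, and all of them exceed the AKT1 KO values, which are not well above background on any array. The AKT2 KO level was at least 4.86-fold higher (limma adjusted p = 0.00373). Such a bound sets the mean of the detected group against the lowest well-detected signal of the other group's arrays. Klk1b22 had the same pairs within the AKT2 KO arrays and differed by 3.1 ± 0.49 log2 units (SE, limma adjusted p = 0.00435), with 2 of the 4 AKT1 KO arrays well above background.

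Further genes within 20 Mb of Akt2 were higher in AKT2 KO hearts at smaller size. Blvrb, a biliverdin and flavin reductase, read 2.07, 1.94, 2.03 and 2.07 in AKT2 KO and 0.69, 0.91, 0.99 and 0.91 in AKT1 KO hearts (difference 1.16 ± 0.09, SE, limma adjusted p = 5.39e-06). The 2 sets of values are tight and well apart. Lrrc4b, a synaptic adhesion protein, averaged 4.75 ± 0.13 in AKT2 KO and 3.38 ± 0.32 in AKT1 KO hearts (SD, n = 4 each, limma adjusted p = 0.000488). Ush1c, the scaffold protein harmonin, averaged 1.13 ± 0.35 in AKT2 KO and -0.53 ± 0.53 in AKT1 KO hearts (SD, n = 4 each, limma adjusted p = 0.0114). It was not called when the gene's probes were averaged (limma adjusted p = 0.0962), the second probe being less even (1.56, probe-level limma adjusted p = 0.418). Fam83e, of a family of casein kinase binding proteins, averaged -1.33 ± 0.40 in AKT2 KO and -3.05 ± 0.35 in AKT1 KO hearts (SD, n = 4 each, limma adjusted p = 0.00034). DKO hearts also carry the Akt2 allele. For Lrrc4b (2.65) and Fam83e (-4.35) their mean lay below both AKT1 KO and control hearts (control 3.32 and -2.31). For Blvrb (1.72) and Ush1c (0.03) it lay between the single knockouts.

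Other genes within 20 Mb of Akt2 were lower in AKT2 KO hearts. Pop4, a subunit of the RNA-processing enzymes RNase P and RNase MRP, read -1.02, -0.91, -0.88 and -0.86 in AKT2 KO and 1.17, 1.30, 1.15 and 1.23 in AKT1 KO hearts. The AKT1 KO level again matched control hearts within 0.12 log2 units, and the AKT2 KO level was 4.38-fold lower than in AKT1 KO (limma adjusted p = 0.0006). Mamstr, a muscle cofactor of MEF2 transcription factors, read -2.98, -3.31, -3.22 and -2.96 in AKT2 KO and -1.79, -1.77, -1.75 and -2.05 in AKT1 KO hearts. It was 2.42-fold lower in AKT2 KO (limma adjusted p = 2.82e-06), and DKO hearts (-3.11 ± 0.057) lay with AKT2 KO and control hearts (-1.87 ± 0.081, SD, n = 4 each) with AKT1 KO.

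Away from Akt2 the controls mostly sided with AKT2 KO. Ptprn2, a phosphatase-like protein of secretory vesicles, lies on chromosome 12 with Akt1. It read -5.35, -5.27, -4.99 and -5.34 in AKT2 KO hearts, not well above background on any array, and 1.55, 1.90, 1.89 and 1.90 in AKT1 KO hearts. Control hearts were as dim as AKT2 KO (-5.46 ± 1.01), and DKO hearts lay at 0.20 ± 0.35 (SD, n = 4 each). The AKT2 KO level was at least 66.1-fold lower (limma adjusted p = 2.15e-08). On the second Ptprn2 probe the difference was only -0.82 (probe-level limma adjusted p = 0.0274), so the 2 probes disagree in size. AA465934, a noncoding transcript of chromosome 11 named here because its p-value was the smallest of all, read -2.75, -2.51, -2.69 and -2.55 in AKT2 KO and 2.72, 3.96, 3.06 and 3.8 in AKT1 KO hearts. Controls averaged -2.66 and DKO hearts -3.42, so the AKT1 KO arrays alone were high (difference -6.01 ± 0.22, SE, limma adjusted p = 7.35e-10).

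Slc38a1, Pdlim3 and Cnot7 were also lower in AKT2 KO hearts. Slc38a1, a transporter of glutamine and other neutral amino acids on chromosome 15, read 0.61, 1.13, 1.35 and 1.32 in AKT2 KO and 2.52, 2.75, 2.42 and 2.67 in AKT1 KO hearts. DKO hearts (2.46 ± 0.16) resembled AKT1 KO, and control hearts (1.14 ± 0.11, SD, n = 4 each) resembled AKT2 KO. The level was 2.80-fold lower in AKT2 KO (limma adjusted p = 5.88e-05), and the other 2 probes differed by -1.67 and -1.64. Pdlim3, an actin-associated protein of the Z-disc, averaged 0.79 ± 0.16 in AKT2 KO and 2.42 ± 0.53 in AKT1 KO hearts (SD, n = 4 each, limma adjusted p = 0.0187). Its call was lost, at limma adjusted p = 0.0529 to 0.0880, without AKT2 KO replicate 2, 3 or 4 or without AKT1 KO replicate 2 or 4. Cnot7, a deadenylase that shortens mRNA tails, averaged -1.90 ± 0.071 in AKT2 KO and -0.43 ± 0.37 in AKT1 KO hearts (SD, n = 4 each, limma adjusted p = 0.000228). Its second probe differed by only -0.17 and was not called.

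Mybphl, which encodes a relative of cardiac myosin-binding protein found mainly in atria, read -6.47, -5.44, -4.76 and -5.58 in AKT2 KO and -1.41, -2.41, -3.84 and -1.59 in AKT1 KO hearts. AKT2 KO, DKO and control hearts were not well above background, and the AKT2 KO level was at least 3.8-fold lower than in AKT1 KO (limma adjusted p = 0.00312). The summed level of 9 atrial and conduction markers was, on a log2 scale, 6.55 to 7.89 in AKT2 KO and 8.09 to 8.50 in AKT1 KO hearts. It was 9.12 to 9.47 in DKO and 6.65 to 7.23 in control hearts. The sum was thus highest in DKO hearts, where Mybphl was not well above background, so the 2 part there. That sum is mostly Nppa, the atrial natriuretic peptide that stressed ventricles also make, which read 6.57, 7.58, 7.81 and 6.36 in AKT2 KO and 8.39, 8.16, 8.46 and 8.03 in AKT1 KO hearts (limma adjusted p = 0.0593, not called). The atrial myosin light chains Myl7 and Myl4 differed by 0.62 and -0.14 (limma adjusted p = 0.999 each), and Sln and Bmp10 did not pass the detection filter. The part of atrial tissue in the Mybphl result was not tested, and in whole tissue more cells of a type cannot be told apart from more RNA per cell.

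The remaining named falls are genes of varied roles. Eprn, a noncoding RNA gene, averaged -1.64 ± 0.46 in AKT2 KO and -0.13 ± 0.37 in AKT1 KO hearts (SD, n = 4 each, limma adjusted p = 0.00647). Ppfibp1, a liprin of cell adhesion sites, differed by -1.30 on the probe used and by 0.0011 on its second probe, so the probes disagree. Insyn2a, a protein of inhibitory synapses, was at least 3.09-fold lower in AKT2 KO hearts (limma adjusted p = 0.00533), where it was not well above background. Zfp963, a zinc finger gene of chromosome 8, differed by -1.93 (limma adjusted p = 0.00616). Kif22, a kinesin of dividing cells, differed by -1.27, and its call was lost without AKT2 KO replicate 2 (limma adjusted p = 0.0560). Arxes2, of a gene pair active in fat cell formation, differed by -1.25 (limma adjusted p = 0.0362), with 1 of the 4 AKT2 KO arrays and all 4 AKT1 KO arrays well above background, so the size is uncertain. Its call was lost at limma adjusted p = 0.0522 to 0.140 without any 1 of AKT2 KO replicates 1 to 4, AKT1 KO replicates 1, 2 and 4, DKO replicate 1 and control replicates 1 and 3. Arxes2, Zfp963, Insyn2a and Mybphl passed the detection filter only through the AKT1 KO arrays, the group where they were high. Their p-values therefore do not stand free of the filter. With no filter on dim probes the Arxes2 call was lost, while Zfp963, Insyn2a and Mybphl stayed called.

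Gsta2, a glutathione transferase of chromosome 9, was higher in AKT2 KO hearts and low in AKT1 KO hearts alone. It read -0.31, -0.05, -0.29 and -0.21 in AKT2 KO and -3.37, -2.37, -1.93 and -3.03 in AKT1 KO hearts, while DKO (0.14 ± 0.50) and control hearts (-0.06 ± 0.073, SD, n = 4 each) were close to AKT2 KO. The difference was 2.46 ± 0.27 log2 units (SE), or 5.50-fold (limma adjusted p = 0.000228). The near-identical copy Gsta1 is not named on the array, so signal from it is uncertain. Nqo1, a quinone reductase and antioxidant enzyme, read 1.40, 1.55, 1.56 and 1.78 in AKT2 KO and 0.54, 0.99, 1.15 and 0.94 in AKT1 KO hearts. The 2 groups do not overlap, but the call (1.59-fold, limma adjusted p = 0.0238) was lost at limma adjusted p = 0.0650 to 0.0957 without AKT2 KO replicate 2, 3 or 4 or AKT1 KO replicate 4.

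Helt, a transcriptional repressor of chromosome 8, read 0.51, 0.84, 0.05 and 0.10 in AKT2 KO and -0.84, -1.65, -0.85 and -1.65 in AKT1 KO hearts. DKO hearts were lower still (-3.20 ± 0.67, SD, n = 4). The difference of 1.62 ± 0.29 (SE, limma adjusted p = 0.0117) was not called without AKT2 KO replicate 2 or AKT1 KO replicate 2 or 4 (limma adjusted p = 0.0504 to 0.0565). Cib3, a calcium-binding protein of the same chromosome, averaged -0.04 ± 0.42 in AKT2 KO and -1.75 ± 0.38 in AKT1 KO hearts (SD, n = 4 each, limma adjusted p = 0.00197). Fgl1, a secreted fibrinogen-like protein, was at least 2.50-fold higher in AKT2 KO hearts, with AKT1 KO arrays not well above background (limma adjusted p = 0.0106). B3gnt3, an enzyme that builds sugar chains, differed by 2.34, with 3 of the 4 AKT2 KO arrays and 1 of the 4 AKT1 KO arrays well above background (limma adjusted p = 0.0093), so the size is uncertain. It entered the test through the DKO arrays and is not tested when the filter uses the AKT2 KO and AKT1 KO groups alone.

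Casc1, linked to dynein of cilia, differed by 2.25 (limma adjusted p = 0.0454) and on its second probe by 2.01 (probe-level limma adjusted p = 0.00133). On the first probe AKT1 KO replicate 1 read -5.26 and the other AKT1 KO arrays -2.32, -2.27 and -2.62. Without that array the difference was 1.53, still called. The call on it was lost (limma adjusted p = 0.0592 to 0.121) without any 1 of AKT2 KO replicates 1 to 4, AKT1 KO replicate 4, DKO replicates 1 and 2 and control replicates 1 to 4. Plekhh1, a pleckstrin homology protein of chromosome 12, differed by 1.70 (limma adjusted p = 0.0333), and its AKT2 KO arrays spread from -1.88 to -0.34. Its call was lost (limma adjusted p = 0.0524 to 0.106) without any 1 of AKT2 KO replicates 1 and 2, AKT1 KO replicates 1, 3 and 4 and control replicates 1, 3 and 4. Rhd, a Rh blood group protein of red cells, averaged 1.89 ± 0.11 in AKT2 KO and 0.31 ± 0.68 in AKT1 KO hearts (SD, n = 4 each, limma adjusted p = 0.00451). With only the 8 AKT2 KO and AKT1 KO arrays in the fit, 9 of the 35 named called genes were not called. Rhd, Fgl1, B3gnt3, Zfp963 and Adig were among them (limma adjusted p = 0.0518 to 0.0983), as were Casc1, Plekhh1, Nqo1 and Dusp1.

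The size of a difference on dim probes depends on how background is treated. With normexp background correction, which adds an offset of 50 and so draws dim levels together, the direction held for all 35 named called genes, and Plekhh1 alone was not called (limma adjusted p = 0.0634). The bounds above hold for the processed signal only, since under normexp the fold was 24.4 for Ptprn2, 2.76 for Klk1b3, 2.48 for Mybphl, 2.22 for Insyn2a and 1.75 for Fgl1. It was 48.9 for Kcnj14, 3.43 for Klk1b22, 3.54 for Gsta2, 2.76 for Casc1, 2.17 for Zfp963, 2.05 for Fam83e, 1.73 for B3gnt3 and 1.52 for Arxes2.

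**Figure D3:**
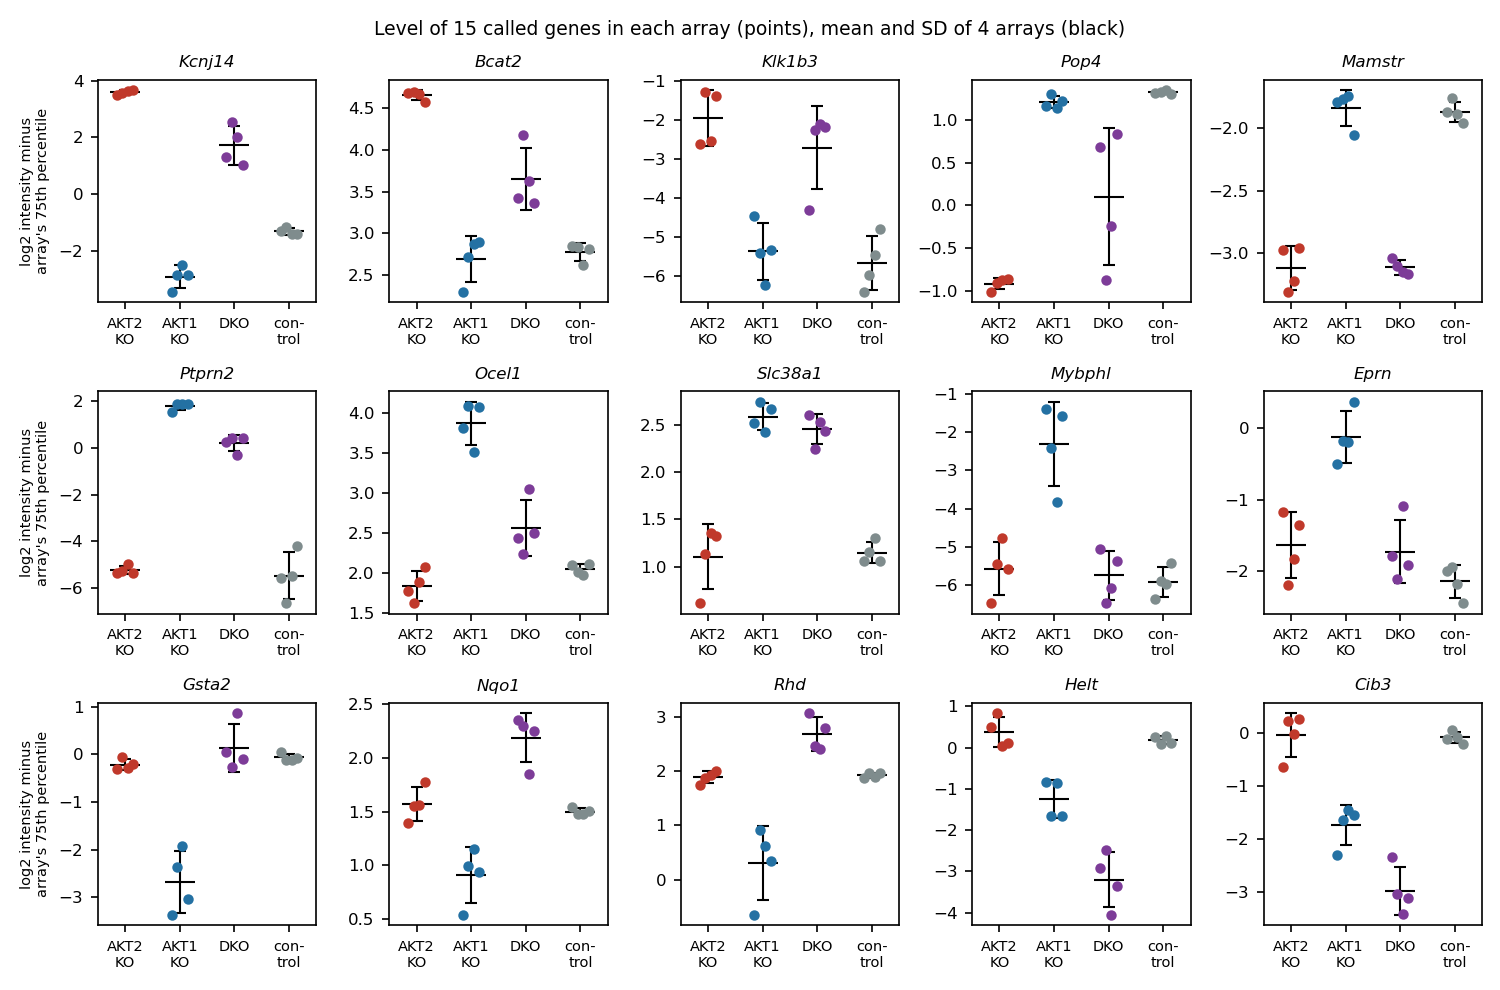
Levels (log2 intensity minus the array's 75th percentile) of 15 called genes in each of the 16 arrays, with mean and SD of 4 arrays in black and a vertical range of its own per panel. In the top row control arrays lie closer to AKT1 KO than to AKT2 KO, and in the middle and bottom rows closer to AKT2 KO, as in Ptprn2 (control -5.46, AKT2 KO -5.24, AKT1 KO 1.81).

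The control arrays took part in the choice of the 123 genes through the shared spread, the detection filter and the choice of each gene's brightest probe. Their position between the knockouts was therefore counted only as a description. The control mean lay nearer the AKT2 KO mean in 93 of the 123 genes and nearer the AKT1 KO mean in 30, beside 55.4% nearer AKT2 KO among all genes tested. The count of 93 was the same with AKT1 KO replicate 1 left out. Of the 23 called genes on chromosome 7 that are Akt2 or lie within 20 Mb of it, the control mean was nearer AKT1 KO in 21, the exceptions being Aldh16a1 and 1700028J19Rik. On chromosome 8 it was nearer AKT2 KO in 23 of 24 called genes, on chromosome 12 in 7 of 7, on chromosome 6 in 11 of 14 and on chromosomes other than 6, 7, 8 and 12 in 47 of 48. On chromosome 7 farther than 20 Mb from Akt2 it was nearer AKT2 KO in 3 of 7. The DKO mean lay nearer AKT2 KO in 75 of the 123 genes (78 without DKO replicate 3), close to the 58.8% of all genes. On chromosome 12 it was nearer AKT2 KO in only 1 of 7, and on chromosome 7 within 20 Mb of Akt2 in 16 of 23.

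By position, 75 of the 123 called genes (61.0%) lay on chromosomes 7, 8, 6 and 12, which hold 21.6% of the genes tested. Chromosomes 8 and 6 carry neither Akt1 nor Akt2 and are among those with the most calls. The share of the grouped chromosomes is therefore set in part by this choice. Chromosome 7 had 30 called of 1093 tested (2.74%), chromosome 8 had 24 of 728 (3.30%), chromosome 6 had 14 of 683 (2.05%) and chromosome 12 had 7 of 466 (1.5%). Elsewhere 48 of 10755 genes were called (0.446%). Within 20 Mb of Akt2, 22 of 439 genes were called, Akt2 itself not counted (5.01%), 12 of them higher and 10 lower in AKT2 KO hearts. Of 108 tested genes up to 10 Mb from Akt1, 5 differed (4.63%), namely Zfp386, Wdr60, Ncapg2, Ptprn2 and Rapgef5. They lie together within 1.58 Mb that hold 9 tested genes, a span cut at the first and last of the 5. With the windows exchanged, 8 of 250 genes were called within 10 Mb of Akt2 (3.2%). Within 20 Mb of Akt1 the same 5 were called, of 134 tested (3.73%).

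Called genes also formed runs on chromosomes that carry neither Akt1 nor Akt2. A run was drawn from the calls themselves, as 5 or more called genes with gaps of at most 5 Mb. It was cut at its first and last called gene, so the share called within a run is raised by this choice. On chromosome 6, a stretch of 1.77 Mb held 6 called genes among 17 tested, including Casc1, Ppfibp1 and Arntl2, a clock gene. On chromosome 8, 8 of 26 tested genes within 9.81 Mb were called, among them Fgl1, Cnot7, Pdlim3 and Helt, and 10 of 103 within 5.60 Mb, among them Ocel1, B3gnt3, Cib3 and Zfp963. On chromosome 7, which carries Akt2, 12 of 91 tested genes within 2.10 Mb were called, from the kallikreins to Ush1c. From Blvrb to Pop4, 11 of 148 within 10.8 Mb were called, Akt2 itself counted. Each stretch held genes of both directions. Whether DNA around the targeted alleles or elsewhere differed in origin between the lines was not tested.

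**Figure D4:**
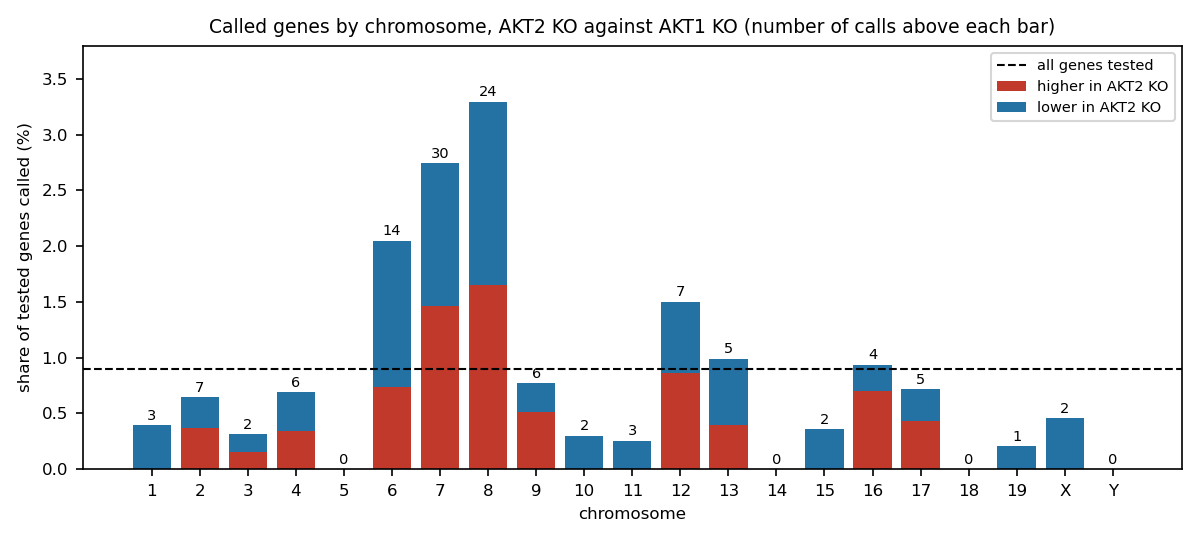
Share of tested genes called in AKT2 KO against AKT1 KO hearts on each chromosome, split into genes higher (red) and lower (blue) in AKT2 KO, with the number of calls above each bar. The dashed line marks all genes tested (0.896%), and chromosomes 7, 8, 6 and 12 lie farthest above it with 30, 24, 14 and 7 calls. Chromosomes 13 (0.990%) and 16 (0.935%) lie just above it with 5 and 4 calls.

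Ocel1, an occludin and ELL domain gene of chromosome 8, was the strongest called fall on that chromosome. It read 1.78, 1.62, 1.88 and 2.07 in AKT2 KO and 3.81, 4.09, 3.52 and 4.08 in AKT1 KO hearts, groups that lie well apart, with control hearts at 2.05 ± 0.066 (SD, n = 4). The difference was -2.04 ± 0.16 (SE, limma adjusted p = 7.34e-06), and -2.07 on the second probe. Since FoxO factors are AKT targets, the 250 bases before each transcript start of RefSeq (GRCm38.p6) were searched on both strands for the FoxO letters GTAAACA. They occur before 4 of the 103 called genes with an entry (3.88%), Ocel1, Helt, Kctd15 and Cfap43, against 306 of 10895 tested genes (2.81%) and 3.17% of all promoters of this length. The letters TGACNNNGC, the core of the antioxidant response element, occur before 18 of the 103 (17.5%), against 13.7% of tested genes and 10.2% of all promoters. A gene counts when any of its starts has a match, while the shares of all promoters count each start by itself, so the 2 kinds of share differ. A match is a description of the letters and not of binding. The promoters of Ocel1 and Helt are shown as called genes with the FoxO letters, one lower and one higher in AKT2 KO, and those of Gsta2 and Bcat2 as strongly differing genes with neither motif in this window. Capitals mark the FoxO letters.
Ocel1, chr8:71371048-71371297, plus strand: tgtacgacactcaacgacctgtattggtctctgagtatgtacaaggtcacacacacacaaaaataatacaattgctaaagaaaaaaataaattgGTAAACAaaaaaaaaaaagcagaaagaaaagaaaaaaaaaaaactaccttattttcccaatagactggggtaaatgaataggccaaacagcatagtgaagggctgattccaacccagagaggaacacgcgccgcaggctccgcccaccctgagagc
Helt, chr8:46294672-46294921, minus strand: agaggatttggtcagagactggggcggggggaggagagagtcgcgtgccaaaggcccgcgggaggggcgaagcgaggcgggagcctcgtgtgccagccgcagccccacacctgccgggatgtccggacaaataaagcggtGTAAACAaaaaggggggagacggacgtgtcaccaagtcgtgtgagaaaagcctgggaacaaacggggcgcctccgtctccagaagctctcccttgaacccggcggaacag
Gsta2, chr9:78347146-78347395, minus strand: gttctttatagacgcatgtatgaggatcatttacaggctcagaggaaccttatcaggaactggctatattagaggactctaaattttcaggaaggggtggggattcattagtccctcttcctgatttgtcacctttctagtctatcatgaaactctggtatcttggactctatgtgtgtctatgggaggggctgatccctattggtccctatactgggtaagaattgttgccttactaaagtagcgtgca
Bcat2, chr7:45569903-45570152, plus strand: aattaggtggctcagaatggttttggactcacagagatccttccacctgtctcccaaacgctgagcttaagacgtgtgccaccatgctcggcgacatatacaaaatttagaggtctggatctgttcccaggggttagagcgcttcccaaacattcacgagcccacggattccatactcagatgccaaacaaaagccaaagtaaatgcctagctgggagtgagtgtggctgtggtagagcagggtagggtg
The Ocel1 and Helt matches start 156 and 110 bases before the transcript start. The second RefSeq start of Bcat2 has no match either, and no promoter entry was matched for Kcnj14 or Slc38a1.

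The genes of insulin and AKT signalling were not called. Of 32 listed members tested, which run from the receptors through phosphoinositide 3-kinase subunits to regulators of mTOR, 0 passed the limma test and 3 had an unadjusted p below 0.05, a threshold that 7.34% of all genes passed. The median log2 difference was 0.031, beside 0.015 over all genes. Akt1 and Akt2 themselves are not in this list. The nearest to a call was Pik3r2, a regulatory subunit of phosphoinositide 3-kinase that lies on chromosome 8, which read 1.88, 1.66, 2.00 and 2.02 in AKT2 KO and 2.16, 2.36, 2.32 and 2.40 in AKT1 KO hearts (limma adjusted p = 0.0795). Among 24 FoxO factors and targets 0 were called, 1 had an unadjusted p below 0.05, and the median was 0.015.

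In metabolism the calls were few. Of 24 genes of branched-chain amino acid breakdown only Bcat2 was called (4.17%, beside 0.896% of all genes), and the median was 0.029. Of 30 genes of fatty acid oxidation, 29 of glucose use and 41 of oxidative phosphorylation, 0 were called, with medians of 0.076, -0.028 and -0.010 and with 2, 2 and 0 members at an unadjusted p below 0.05. Of 20 genes of the ATF4 and amino acid stress response, Slc38a1 and Mthfd2, a mitochondrial enzyme of folate metabolism, were lower in AKT2 KO hearts. These calls are 10% of the list, beside 0.896% of all genes. Mthfd2 read -2.78, -3.12, -2.92 and -3.58 in AKT2 KO and -1.88, -2.06, -1.75 and -2.37 in AKT1 KO hearts, without overlap (difference -1.08 ± 0.18, SE, limma adjusted p = 0.00562). Asns, the asparagine synthetase of the same list, differed by -0.37 and was not called (limma adjusted p = 0.100). Of 29 genes of glutathione and oxidative stress, Gsta2, Blvrb and Nqo1 were higher in AKT2 KO hearts and 0 were lower, 10.3% called, beside 0.896% of all genes, with a list median of 0.051. The 3 do not share a side. Against control, Blvrb was higher in AKT2 KO (0.91, limma adjusted p = 0.000116), and Gsta2 was lower in AKT1 KO (-2.61, limma adjusted p = 0.00022). Nqo1 differed from control by 0.07 in AKT2 KO and -0.59 in AKT1 KO, called in neither.

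Immediate early genes, which encode transcription factors and phosphatases induced within minutes of a stimulus, had the largest median of the pathway lists at 0.299, and 20 of 22 members lay above 0, as did 55.0% of all genes. Of the 22, 8 had an unadjusted p below 0.05, as did 7.34% of all genes. Only Dusp1, a phosphatase of MAP kinases, was called (4.55% of the list, beside 0.896% of all genes). It read 2.43, 3.13, 2.99 and 2.82 in AKT2 KO and 2.18, 2.16, 2.42 and 2.10 in AKT1 KO hearts, groups that do not overlap by a small margin (1.55-fold, limma adjusted p = 0.0465). The call was lost at limma adjusted p = 0.0519 to 0.173 without any 1 of AKT2 KO replicates 2, 3 and 4, AKT1 KO replicates 1, 2 and 4, DKO replicates 1, 2 and 4 and control replicates 2, 3 and 4. Fos read -2.82, 0.04, -0.62 and -0.41 in AKT2 KO and -2.65, -2.68, -2.60 and -2.79 in AKT1 KO hearts, so that AKT2 KO replicate 1 was the lowest of all 8 and the other 3 AKT2 KO arrays were higher than every AKT1 KO array (limma adjusted p = 0.169). Control hearts had -1.59, 0.11, -1.37 and -1.29.

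Of the lists of heart muscle function, 28 sarcomere and Z-disc genes held 1 call (Pdlim3, lower), 21 calcium cycling genes held 0, none of them at an unadjusted p below 0.05, and 26 ion channel genes held 1 (Kcnj14, higher). These calls are 3.57%, 0% and 3.85% of the listed genes, beside 0.896% of all genes. The medians were -0.002, 0.020 and -0.095. Of 22 fetal and stress genes Mybphl was the only call (4.55%, median -0.041). Myh7 differed by -0.84 and Nppb by -0.48 without passing the test (limma adjusted p = 0.684 and 0.364). Collagens and matrix genes had 0 calls among 28 and a median of 0.096, with 25 of 28 above 0. The 30 cytosolic ribosomal protein genes had 0 calls, 2 at an unadjusted p below 0.05 and a median of 0.137. Without AKT1 KO replicate 1 these medians were 0.014 and 0.065. Interferon response genes (24 tested, median 0.008) and core clock genes (19 tested, median 0.122) had 0 calls each, with 2 members each at an unadjusted p below 0.05.

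**Figure D5:**
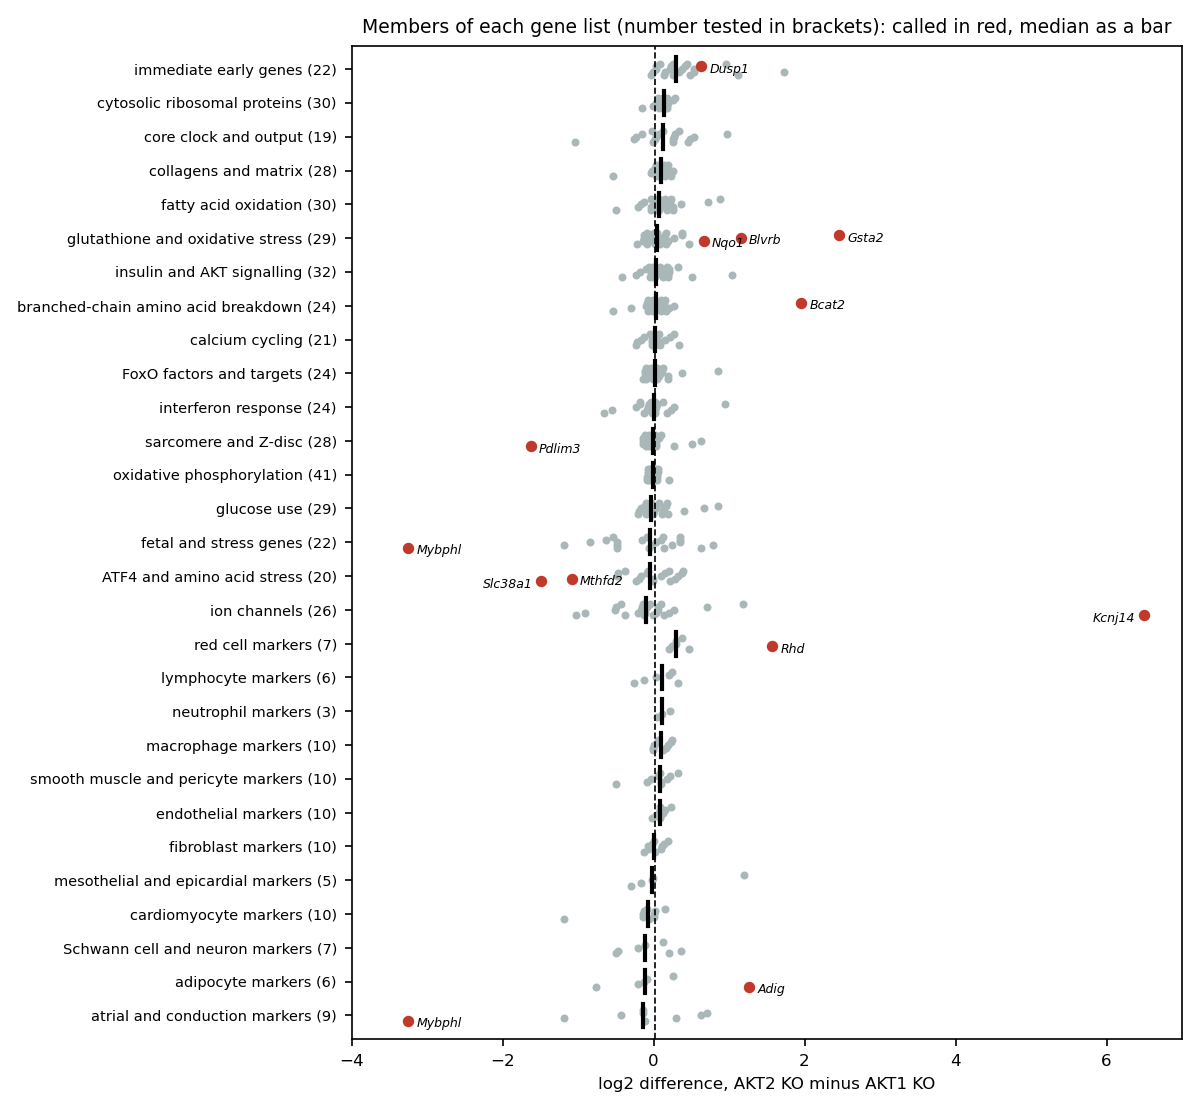
Log2 difference of AKT2 KO minus AKT1 KO for the tested members of 29 gene lists, pathways above and cell type markers below. Red points are called genes, black bars are list medians and the dashed line is the median of all genes (0.015). Called members stand alone in most lists, and 19 lists hold none.

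Markers of other heart cells were called in 3 lists. Each held 1 call, among 7 red cell, 6 fat cell and 9 atrial and conduction markers (14.3%, 16.7% and 11.1%), beside 0.896% of all genes. Rhd was called among 7 red cell markers, and all 7 lay above 0 (median 0.303), the haemoglobin genes Hba-a1 and Hbb-b1 at 0.30 and 0.48 without a call. The red cell median was 0.750 on slide 1 alone and 0.011 on slide 2 alone, and the summed level of the 7 markers overlapped between AKT2 KO (8.55 to 9.14) and AKT1 KO hearts (8.34 to 8.95). Adig, adipogenin of fat cells, read -1.44, -1.07, -1.36 and -0.84 in AKT2 KO and -3.10, -2.03, -2.38 and -2.28 in AKT1 KO hearts (2.41-fold, limma adjusted p = 0.00329). Of the 6 tested fat markers only 2, Adig and Fabp4, lay above 0, and the median was -0.111. Fabp4 differed by 0.25 and was not called (limma adjusted p = 0.831), and Adipoq and Plin1 did not pass the detection filter. The summed level of the 6 markers was 6.91 to 7.11 in AKT2 KO and 6.64 to 6.95 in AKT1 KO hearts. The part of blood or fat cells in the Rhd and Adig results was not tested. Cardiomyocyte markers, all 10 of which were tested, had summed levels of 11.7 to 11.9 in AKT2 KO and 11.7 to 12.2 in AKT1 KO hearts, and 0 of them were called. The fibroblast, endothelial, smooth muscle, macrophage, lymphocyte, neutrophil, mesothelial and Schwann cell lists had 0 calls each, and their summed levels overlapped between AKT2 KO and AKT1 KO hearts.

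Probes without a gene symbol were tested apart. Of 7056 that passed the detection filter, 38 were called with p-values adjusted among these probes alone, beside 123 of 13725 genes. Of the 38, 17 were higher and 21 lower in AKT2 KO hearts. Of the 123 called genes, 42 had further kept probes, 52 in all, of which 43 differed in the same direction and 22 of those were called in a test of all probes.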

How the data were processed

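RNA of 16 mouse hearts was hybridised to 1-colour Agilent arrays, 4 per group. The scanner files hold spot intensity values made with Agilent Feature Extraction 12.0.3.1, per the file headers, which subtracts background before giving the processed signal. The authors' deposited table holds log2 values. Set against the scanner values, it matched the quantile-normalized processed signal centred on each probe's median, and it served as an alternative; its normalization is not given in the sources used here. The level used was log2 of the processed signal minus the array's 75th percentile over non-control spots. Probes were kept where 1 group or more had all 4 arrays well above background, which left 13725 genes, each read by its brightest kept probe. Of 56605 probes, 32994 (58.3%) were given a symbol through RefSeq GRCm38.p6 accessions. Differences were tested with limma 3.58.1 in R 4.3.3, with 1 mean per group over all 16 arrays (12 residual degrees of freedom) and Benjamini-Hochberg adjustment at 0.05.

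The text names Akt1 and Akt2, of the called genes whose groups do not overlap, the 15 with the largest positive and the 15 with the largest negative difference, and the 3 called members of each list with the smallest adjusted p, passing over accession-like names. Some further genes are not reported here. AA465934 and the list members that were not called were chosen after their values were seen. The comparison and the lists were chosen with earlier results of these data known. On simulated data, 42%, 78%, 94% and 100% of 50 genes changed by 0.5, 1, 2 and 4 log2 units were recovered, with 5 false calls among 13725 genes. The simulated noise was normal and independent, with 1 SD per gene for all groups. It held no array that deviates as a whole and no difference in spread between groups, unlike the real arrays. These rates therefore need not hold for the real data. Alternatives covered background correction, normalization, filter, probe choice, weights, prior, samples, slide, row, replicate number and each array left out. Figures were drawn with matplotlib 3.10.9.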

Additional observations from a re-analysis of the deposited data

Results flagged for a closer look

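In 7 of the 74 groups of 4 arrays examined among the named genes, 1 array stood apart from the other 3 by a gap that was a larger share of the group's range than Dixon's critical value allows. Chance alone marks about 1 in 20 groups. AKT1 KO replicate 1 was the array concerned in 5 of the 7. It was the lowest AKT1 KO array for Akt2 (4.51, next 4.84, share 0.873), Casc1 (-5.26, next -2.62, share 0.882), Fam83e (-3.57, next -2.93, share 0.895) and Ptprn2 (1.55, next 1.89, share 0.980). For Ppfibp1 it was the highest (2.79, next 2.11, share 0.903). For Pdlim3, AKT2 KO replicate 2 was the lowest AKT2 KO array (0.56, next 0.85, share 0.862), and for Mamstr, AKT1 KO replicate 4 was the lowest AKT1 KO array (-2.05, next -1.79, share 0.864).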

How the results depend on the processing

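The 123 calls became 81 with no filter on dim probes (80 shared), 849 with array quality weights (343 higher, 506 lower), 46 on slide 1 alone (27 shared) and 8 on slide 2 alone (7 shared), where each group has 2 arrays. Leaving out each array gave 84 calls (without AKT1 KO replicate 4) to 328 (without DKO replicate 3). The other alternatives gave 101 to 142. The 101 came with only the 8 AKT2 KO and AKT1 KO arrays in the fit, and 72 of them were among the 123. None of the 35 named called genes changed direction. Akt2 stayed called at -2.33 to -1.98 and Akt1 stayed uncalled at -0.19 to 0.01, its sign turning without AKT1 KO replicate 2. Of the 35 named called genes, 27 stayed called without any 1 array, as did 77 of all 123, and 52 of the 123 stayed called in every alternative other than the single slides as well. Replicate numbers did not pair the samples, the same-numbered deviations correlating at -0.35, 0.14, -0.14 and 0.20. The replicate block gave 105 calls (95 shared). The authors' deposited values gave 141 calls, and the higher share of calls was 46.3% in the main setting, 42.3% with quantile normalization and 38.6% with the 8 arrays alone. Signal near background limits Klk1b3, Fgl1, Ptprn2, Insyn2a and Mybphl to bounds and leaves the sizes of Arxes2 and B3gnt3 uncertain. Array column and genotype cannot be told apart.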
